A study of Mus musculus with 5 samples.

Results

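The genes described here are the aryl hydrocarbon receptor battery: the receptor gene Ahr, its partner Arnt, its repressor Ahrr, and 5 genes known to respond to the receptor, Cyp1b1, Cyp1a1, Tiparp, Aldh3a1 and Nqo1. They were taken by gene symbol from the annotated array table and make up 8 of 21654 genes measured, with 9 of 25006 probe sets that carry 1 symbol. The cells were mouse embryonic fibroblasts (MEFs), cultured cells grown out of embryos, and both groups had been carried to passage 40 by 3T3 culture, a fixed schedule of serial replating. The knockout cells were MDR2-/- (3 arrays, replicates 1, 2 and 3) and came from littermates of the MDR2+/+ embryos that gave the wild-type cells (2 arrays, replicates 2 and 3). Mdr2 is the older name of Abcb4, a phospholipid translocator gene of bile-forming liver cells. No drug or receptor ligand is named for either group. The labels do not say whether the replicates were separate embryos or cultures, so errors below measure only the spread between these arrays, which may be technical. The set was chosen by the log2 difference of Cyp1b1 and Aldh3a1 between knockout and wild type on these same arrays, and the other 6 genes were added as parts of the same pathway. All knockout against wild-type values of the 8 genes are therefore a description and carry no test.

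The aryl hydrocarbon receptor is a transcription factor of the bHLH-PAS family that waits in the cytoplasm with HSP90 chaperones until it binds a ligand, such as dioxin, a polycyclic aromatic hydrocarbon or a tryptophan metabolite. It then enters the nucleus, pairs with ARNT and binds the dioxin response element at genes for drug-metabolising enzymes and for its own repressors, AHRR and TIPARP. In fibroblasts Cyp1b1 is the best known cytochrome P450 of this set, whereas Cyp1a1 is the classical inducible gene of liver.

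The promoters of Cyp1b1, Cyp1a1, Tiparp and Ahrr are shown because all are textbook receptor targets whose signals differed in opposite directions or lay at background here. Each line gives the 250 bases before the gene start on the strand of the gene (RefSeq, GRCm38.p6), 5′ to 3′. Capitals mark the core of the dioxin response element, GCGTG, or its complement CACGC where the core lies on the other strand.
Cyp1b1: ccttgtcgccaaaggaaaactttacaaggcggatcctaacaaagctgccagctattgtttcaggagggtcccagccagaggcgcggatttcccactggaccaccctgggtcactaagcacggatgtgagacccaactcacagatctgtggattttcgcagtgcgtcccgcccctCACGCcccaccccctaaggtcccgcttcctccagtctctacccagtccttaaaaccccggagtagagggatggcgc
Cyp1a1: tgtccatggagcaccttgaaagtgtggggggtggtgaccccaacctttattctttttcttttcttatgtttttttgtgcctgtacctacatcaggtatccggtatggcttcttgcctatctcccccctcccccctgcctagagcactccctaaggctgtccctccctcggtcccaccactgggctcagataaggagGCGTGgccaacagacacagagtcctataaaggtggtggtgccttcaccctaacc
Tiparp: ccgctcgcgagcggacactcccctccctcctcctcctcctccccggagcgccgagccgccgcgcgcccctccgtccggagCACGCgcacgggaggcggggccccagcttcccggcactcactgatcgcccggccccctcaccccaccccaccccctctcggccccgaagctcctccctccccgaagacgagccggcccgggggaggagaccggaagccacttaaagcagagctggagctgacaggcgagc
Ahrr: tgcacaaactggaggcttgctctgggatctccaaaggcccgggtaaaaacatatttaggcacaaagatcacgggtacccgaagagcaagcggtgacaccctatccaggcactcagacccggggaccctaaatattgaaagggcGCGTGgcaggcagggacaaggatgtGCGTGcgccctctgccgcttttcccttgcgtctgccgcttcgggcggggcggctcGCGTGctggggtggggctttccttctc
These windows are chr17:79715062-79715311 (minus strand), chr9:57697363-57697612 (plus strand), chr3:65528197-65528446 (plus strand) and chr13:74292332-74292581 (minus strand). The core lies 76 to 72 bases before the start of Cyp1b1, 54 to 50 before Cyp1a1 and 170 to 166 before Tiparp. Ahrr holds 3 cores, the nearest 27 to 23 bases before its start. Sequences were found for 6 of the 8 genes, all but Ahr and Aldh3a1. Of those 6, 5 hold GCGTG on either strand, as do 28.2% of 32851 mouse promoter windows of the same length. Nqo1 has none in this window. The longer form TNGCGTG, which contains the core, occurs in 1 of the 6, Ahrr, and in 4.1% of all windows. The antioxidant response element core TGACNNNGC occurs in Arnt alone among the 6, and in 10.2% of all windows. A match is a run of letters and not a measured binding site.

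**Figure D1:**
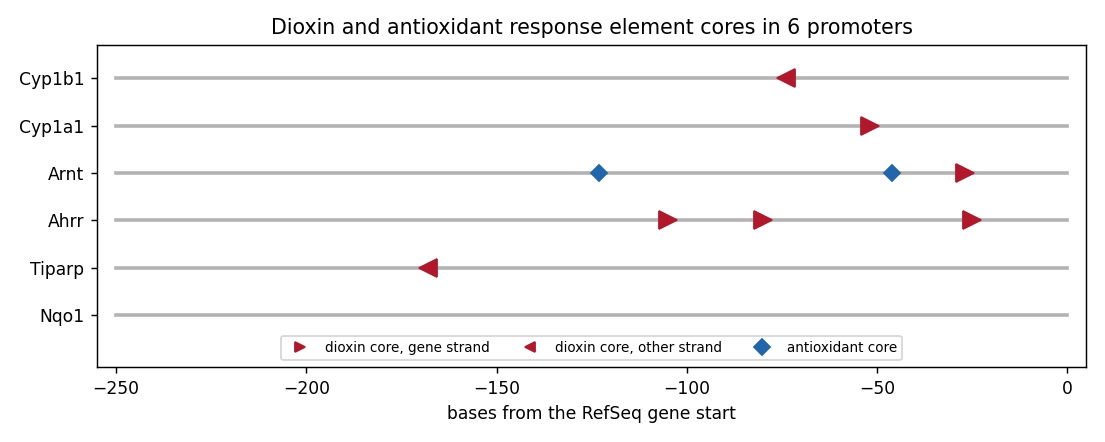
Positions of response element cores in the 250 bases before the RefSeq start of 6 genes, with bases from the start on the x axis and 1 line per gene. Red triangles mark GCGTG and point right where it lies on the strand of the gene, and blue diamonds mark TGACNNNGC. Cyp1b1, Cyp1a1, Tiparp and Arnt each carry 1 red mark, Ahrr carries 3 and Nqo1 none.

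All signals below are log2 probe set values as deposited, on which 1 unit is a doubling. Background was read from the 45 antigenomic probe sets, designed to match nothing in the mouse genome. Their median was 2.14, and their 95th percentile lay between 5.71 and 6.08 on the 5 arrays. The median level of all genes, 4.33, lies under that percentile, so a value under it does not show that a gene is silent. Abcb4 itself was at 6.0, 4.63 and 5.74 on the arrays labelled knockout, against 4.05 and 3.95 on the wild-type arrays, so its signal did not check the labels (limma adjusted p = 0.357). The sources used here do not give the disrupted part of the gene, so directions are those of the arrays as labelled. Xist, the RNA of the inactive X chromosome, lay between 7.32 and 7.68 on the knockout arrays, against 2.98 and 3.17 on the wild-type arrays. The Y-linked gene Ddx3y lay between 2.26 and 2.61 on the knockout arrays, against 6.65 and 6.96 in wild type. Genotype label and sex-linked expression therefore cannot be told apart. Of 14 fibroblast markers, 11 lay above the background percentile on every array, and Fap and Lum on none. The means of 10 of the 14 were lower and of 4 higher in knockout, with a median difference of -0.19, and 0 passed limma's adjusted p of 0.05. The summed log2 signal of the list lay between 119.6 and 122.9 on the knockout arrays, against 121.3 and 122.4 on the wild-type arrays. The differences lay between -1.82 (Dcn) and 4.73 (the surface marker Thy1). Thy1 was at 10.14 ± 0.42 (SD, n = 3) in knockout and 5.41 ± 0.27 (SD, n = 2) in wild type (limma adjusted p = 0.0524). All 8 epithelial, 5 hepatocyte, 4 endothelial, 4 muscle and 4 glial markers stayed under the background percentile on every array. Of 4 adipocyte markers Fabp4 exceeded it on 1 array, at 6.90, 5.49 and 5.56 on the knockout arrays, against 3.83 and 4.18 in wild type. Of 5 macrophage and leukocyte markers Cd68 exceeded it on 1 array, at 4.61, 4.61 and 4.58 on the knockout arrays, against 6.25 and 4.35 in wild type. Whether other cell types have a part in the results below was not tested.

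The receptor and its partner had higher values on the knockout arrays, and the repressor lay at background. Ahr was at 8.06, 7.22 and 8.05 on the arrays labelled knockout, in replicate order, against 6.87 and 6.58 in wild type. Both groups were above background and did not overlap, with knockout replicate 2 nearest to wild type. The averages were 7.78 ± 0.48 (SD, n = 3) in knockout and 6.72 ± 0.21 (SD, n = 2) in wild type, which differ by 1.05 ± 0.34 (SE), or 2.08-fold. The gap between the groups, 0.35, was smaller than the range of 0.85 within the knockout arrays. The probe set of Ahr is annotated to chromosome 12, 36182651 to 36219661 (minus strand, NCBIM37, as for all probe set positions here).

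Arnt, which encodes the obligate partner of the receptor and also of the hypoxia factors, differed less. It was at 7.82, 7.43 and 7.54 on the knockout arrays, against 7.32 and 7.13 on the wild-type arrays. The groups were separated by 0.11, less than the range of 0.39 within knockout, and the difference was 0.37 ± 0.15 (SE). Its probe set lies on chromosome 3, 95238350 to 95300210 (plus strand). Ahrr, which encodes the repressor that competes with the receptor for ARNT, was at 2.65, 2.74 and 2.79 on the knockout arrays, against 2.65 and 2.52 in wild type. The groups overlapped, and all 5 values lay far under the background percentile, so no level of Ahrr can be stated. Its probe set is on chromosome 13, 74348566 to 74429757 (minus strand).

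The largest difference of the battery was that of Cyp1b1, a P450 that hydroxylates oestradiol and polycyclic aromatic hydrocarbons. Its main probe set read 10.08, 9.65 and 10.23 on the knockout arrays, against 3.41 and 3.65 on the wild-type arrays. All 3 knockout values were well above the background percentile and both wild-type values below it. The averages were 9.99 ± 0.30 (SD, n = 3) in knockout and 3.53 ± 0.17 (SD, n = 2) in wild type, which differ by 6.46 ± 0.22 (SE), or 87.7-fold. The wild-type level is under the background percentile, though above the background median of 2.14, so the fold change may be understated. By size of the measured increase Cyp1b1 ranked 3 among 21654 genes. This probe set covers chromosome 17, 80106293 to 80114381, on the minus strand, which is the strand of Cyp1b1 in RefSeq.

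A second probe set is also named Cyp1b1 but is annotated to the opposite, plus strand, at 80112612 to 80115776 of chromosome 17. It shares 1770 bases with the first and is 3165 bases long. It read 5.71, 5.14 and 6.09 on the knockout arrays, against 3.27 and 2.78 in wild type. The groups were apart by 1.87, but only knockout replicate 3 passed the background percentile. Its difference was 2.62 ± 0.37 (SE, from a fit of every probe set). On both probe sets replicate 3 was the highest and replicate 2 the lowest knockout array. Which transcript the plus-strand probe set reads was not tested. When both were averaged, the difference of Cyp1b1 came to 4.54, so the size depends on which probe set is used.

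Cyp1a1, the aryl hydrocarbon hydroxylase gene and the most widely used marker of receptor activation, stayed at background in both groups. It read 2.63, 2.36 and 2.45 on the knockout arrays, against 2.49 and 2.49 on the wild-type arrays. The groups overlapped, with a difference of -0.01 ± 0.09 (SE). Its probe set is annotated to chromosome 9, 57499192 to 57551628 (plus strand), a span of 52437 bases that contains the whole Cyp1a2 probe set. Cyp1a2, the related P450 of liver, was likewise at 2.38 ± 0.04 (SD, n = 3) in knockout and 2.28 ± 0.12 (SD, n = 2) in wild type. Of the 3 Cyp1 genes, Cyp1b1 alone therefore had any array above the background percentile.

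Tiparp, an ADP-ribosyltransferase gene that the receptor induces and whose product restrains it, had lower values on the knockout arrays. It was at 6.67, 6.13 and 6.60 there, against 8.54 and 7.70 in wild type. Every array was above background and the groups were apart by 1.04, with the wild-type arrays 0.84 from each other. The averages were 6.46 ± 0.29 (SD, n = 3) in knockout and 8.12 ± 0.59 (SD, n = 2) in wild type, which differ by -1.66 ± 0.35 (SE), or 3.16-fold. Leaving out replicate 2 of wild type gave -1.24, and leaving out its replicate 3 gave -2.08. The probe set lies on chromosome 3, 65332369 to 65359440 (plus strand). Tiparp thus had the opposite sign to Cyp1b1 and Ahr.

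Aldh3a1 showed the second extreme of the battery. It encodes an aldehyde dehydrogenase of aromatic and lipid-derived aldehydes, abundant in cornea and inducible by dioxin in hepatoma cells. It was at 4.30, 4.26 and 3.92 on the knockout arrays, against 8.98 and 9.65 on the wild-type arrays. Here the pattern was the mirror of Cyp1b1, with the wild-type arrays well above the background percentile and all knockout arrays below it. The averages were 4.16 ± 0.21 (SD, n = 3) in knockout and 9.31 ± 0.47 (SD, n = 2) in wild type, which differ by -5.15 ± 0.27 (SE), or 35.6-fold. The knockout level is under the background percentile, though above the background median of 2.14, so the fold change may be understated. By size of the measured decrease Aldh3a1 ranked 4 among 21654 genes. Its probe set lies on chromosome 11, 61022247 to 61031916 (plus strand).

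Nqo1, the quinone reductase gene that answers both to the receptor and to the oxidative stress factor NRF2, had lower values on the knockout arrays too, though near background. It was at 4.45, 4.86 and 4.52 there, against 5.66 and 6.09 in wild type. Only wild-type replicate 3 exceeded the background percentile. The difference was -1.26 ± 0.21 (SE), with the groups apart by 0.80, more than the range within either. Its probe set lies on chromosome 8, 109912124 to 109927162 (minus strand).

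**Figure D2:**
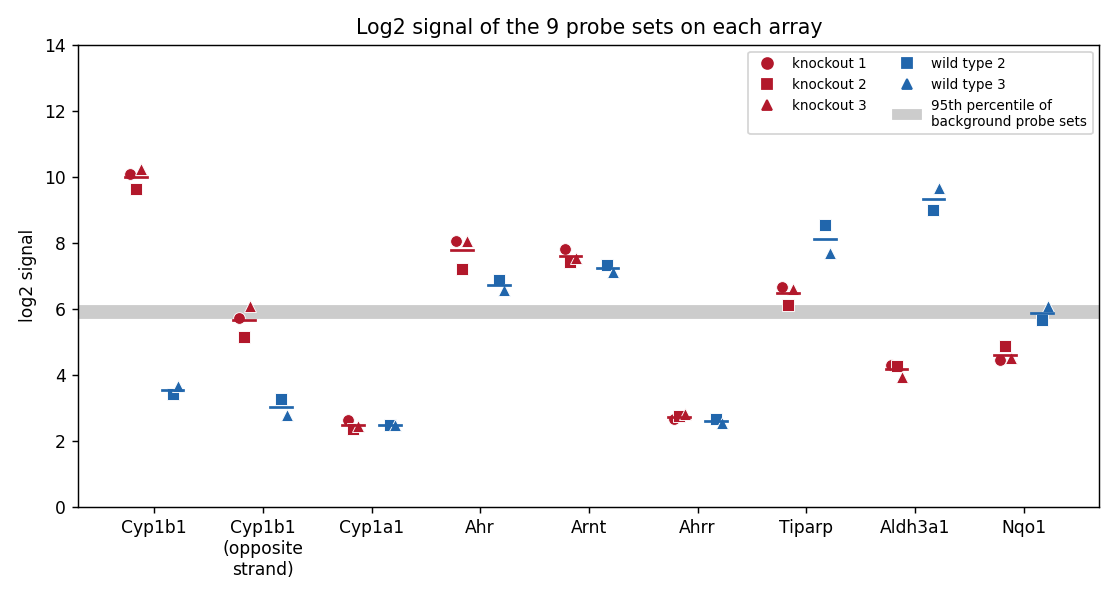
Log2 signal of the 9 probe sets on each array, with the 3 knockout arrays (red) left of the 2 wild-type arrays (blue) and marker shapes for the replicate number. Horizontal lines are group means, and the grey band spans the 95th percentiles of the background probe sets, 5.71 to 6.08. Cyp1b1 sits near 9.99 in knockout and 3.53 in wild type, Aldh3a1 near 4.16 in knockout and 9.31 in wild type, and Cyp1a1 and Ahrr lie at the bottom in both groups.

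Side by side, the 8 genes differed in both directions. Of the 8 genes, 3 (Cyp1b1, Ahr and Arnt) lay higher on every knockout array than on any wild-type array, 3 (Aldh3a1, Tiparp and Nqo1) lay lower on every one, and Cyp1a1 and Ahrr overlapped. Groups did not overlap for 25.0% of all genes, 10.6% with knockout higher and 14.4% with knockout lower. In the fit of all genes with limma, 2 of the 8 passed an adjusted p of 0.05, Cyp1b1 upward and Aldh3a1 downward, beside 0.300% of all genes (0.152% upward and 0.148% downward). Since this contrast chose the set, nothing is read from these counts. Both calls were absent when any of the knockout replicates 1, 2 and 3 or wild-type replicate 2 was left out, and both stayed without wild-type replicate 3. The smallest two-sided p that an exact permutation of 3 against 2 arrays can give is 0.1. In a bulk culture, fewer cells expressing a gene and less RNA per cell cannot be told apart.

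Genes that carry the receptor or share its family and coactivators were compared next, to see whether other parts of the machinery differed. Of 28 measured, 0 passed limma's adjusted p of 0.05, and at an unadjusted p under 0.05 there were 1 higher and 6 lower in knockout, beside 5.39% and 8.28% of all genes. Their median difference was -0.07, against 0.00 over all genes. Of the 28, 15 exceeded the background percentile on an array, against 7728 of all 21654 genes. The counts and medians therefore cover unlike shares of genes with signal. Rb1, the retinoblastoma gene, whose product binds the receptor, was at 4.47 ± 0.19 (SD, n = 3) in knockout and 5.90 ± 0.44 (SD, n = 2) in wild type (limma adjusted p = 0.169), and only 1 array was above the background percentile. The acetyltransferase coactivator Ep300 was at 7.31 ± 0.17 (SD, n = 3) in knockout and 8.0 ± 0.20 (SD, n = 2) in wild type (limma adjusted p = 0.216). Npas2, a clock factor of the same bHLH-PAS family, differed by 1.52 ± 0.52 (SE; limma adjusted p = 0.365), and Npas3, of that family too, by -0.74 ± 0.17 (SE; limma adjusted p = 0.226). Neither was above the background percentile on any array. The chaperone gene Hsp90ab1, picked after its values were seen, differed by 0.05 ± 0.04 (SE; limma adjusted p = 0.628).

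Other genes described as receptor-responsive in liver, epithelium or immune cells gave a mixed picture. Of 28 measured, 0 passed limma's adjusted p, and the median difference was 0.00. At an unadjusted p under 0.05 there were 2 higher and 4 lower, beside 5.39% and 8.28% of all genes. The chemokine gene Ccl5 was at 9.13 ± 0.38 (SD, n = 3) in knockout and 7.53 ± 0.32 (SD, n = 2) in wild type (limma adjusted p = 0.183). Ptgs2, the inducible cyclooxygenase gene, and Ereg, the growth factor epiregulin, lay on the other side. Ptgs2 differed by -1.87 ± 0.70 and Ereg by -1.57 ± 0.52 (SE; limma adjusted p = 0.405 and 0.346). These were named by size of difference, and none passed the test. Of the 28, the groups did not overlap for 3 with knockout higher and 6 with knockout lower, beside 10.6% and 14.4% of all genes. The background percentile was exceeded on an array by 9 of the 28, against 7728 of all 21654 genes.

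Among the other P450 genes and their electron donors, 0 of 93 passed, and the median difference was 0.03. At an unadjusted p under 0.05 there were 6 higher and 7 lower, beside 5.39% and 8.28% of all genes. The background percentile was exceeded on at least 1 array by 11 of the 93, against 7728 of all 21654 genes. Cyp7b1, an oxysterol hydroxylase gene, had the largest difference, at 6.56, 5.68 and 5.70 on the knockout arrays, against 2.95 and 3.46 in wild type (2.77 ± 0.38, SE; limma adjusted p = 0.125). Cyp26b1, which clears retinoic acid, was at 4.66, 4.55 and 4.92 on the knockout arrays, against 7.17 and 6.61 in wild type (-2.18 ± 0.23, SE; limma adjusted p = 0.0953). Its limma adjusted p was 0.0328 after a further quantile normalization and 0.0318 once genes without spread were left out. The latter was the lowest of 15 alternative fits, of which 4 passed 0.05. Cyp2d22 and the oxysterol hydroxylase gene Cyp39a1 differed by 2.08 ± 0.68 and 1.67 ± 0.42 (SE; limma adjusted p = 0.340 and 0.249). Cyp2d22 was uneven within knockout, at 7.55, 5.54 and 6.64 on replicates 1, 2 and 3.

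The tryptophan and kynurenine pathway supplies natural receptor ligands. Of its 18 measured genes 0 passed limma's adjusted p, and the median difference was -0.02. An unadjusted p under 0.05 was reached by 0, beside 13.7% of all genes. The background percentile was exceeded on an array by 3 of the 18, against 7728 of all 21654 genes. Slc7a5 and Slc3a2, the chains of an exchanger that carries tryptophan and kynurenine, were expressed in both groups. Slc7a5 was at 7.90, 8.89 and 8.29 on the knockout arrays, against 9.84 and 9.0 in wild type (limma adjusted p = 0.464), and Slc3a2 differed by -0.50 ± 0.22 (SE; limma adjusted p = 0.503). Wars, the tryptophanyl-tRNA synthetase gene, and Afmid, the kynurenine formamidase gene, overlapped between groups.

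NRF2-responsive genes share Nqo1 with the battery. Of 36 others 0 passed limma's adjusted p. At an unadjusted p under 0.05 there were 4 higher and 10 lower in knockout, beside 5.39% and 8.28% of all genes. Their median difference was -0.21, against 0.00 over all genes, with 14 on the higher and 22 on the lower side. Of the 36, 30 exceeded the background percentile on an array, against 7728 of all 21654 genes. The medians and the counts at an unadjusted p therefore cover unlike shares of genes with signal. The genes named next all lie on the lower side. Ephx1, the microsomal epoxide hydrolase gene, was at 7.43, 7.79 and 7.26 on the knockout arrays, against 9.72 and 9.66 in wild type. It differed by -2.20 ± 0.18 (SE, limma adjusted p = 0.0675). After a further quantile normalization its limma adjusted p was 0.0158, the lowest of 15 alternative fits, of which 4 passed 0.05. The glutathione transferase genes Gsta4 and Gstm2 differed by -2.04 ± 0.38 and -1.75 ± 0.29 (SE; limma adjusted p = 0.178 and 0.158). Nfe2l2, which encodes NRF2 and was picked after its values were seen, was at 8.67 ± 0.17 (SD, n = 3) in knockout and 9.41 ± 0.08 (SD, n = 2) in wild type (limma adjusted p = 0.159).

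**Figure D3:**
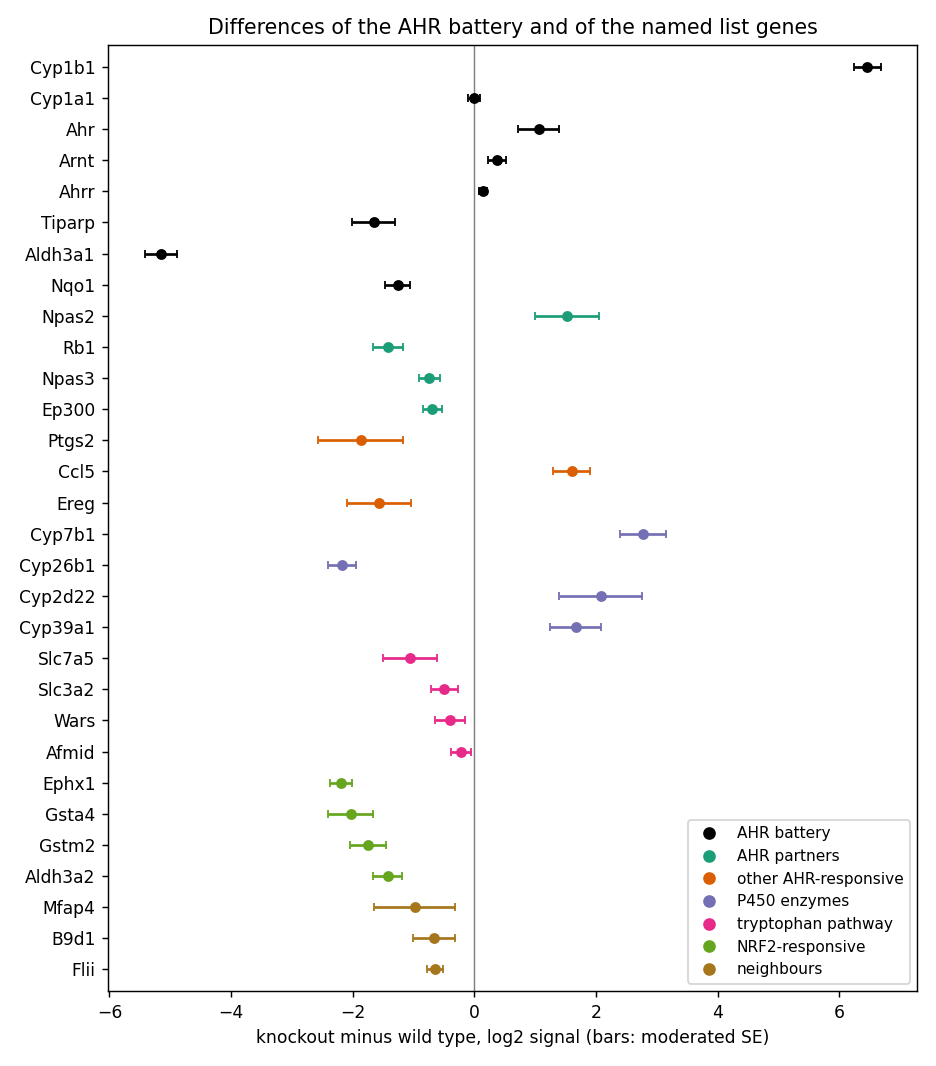
Difference between knockout and wild-type means on the log2 scale (x axis), with moderated standard errors as bars, for the 8 genes of the battery (black) and named genes of each list (coloured by list). Cyp1b1 at 6.46 and Aldh3a1 at -5.15 lie at the ends, and the named genes of the other lists lie between -2.20 and 2.77.

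Neighbouring genes were examined to see whether the differences of Cyp1b1 and Aldh3a1 extended along the chromosome. Within 500 kb of Cyp1b1, 7 genes were measured, and their differences lay between -0.24 and 0.48. The nearest, Rmdn2 and Atl2, which flank it, differed by 0.10 ± 0.08 and -0.07 ± 0.07 (SE; limma adjusted p = 0.593 and 0.691). Within 500 kb of Aldh3a1, 24 genes were measured, between -1.42 and 0.32. The lowest was the adjacent Aldh3a2, a fatty aldehyde dehydrogenase gene of the same family, whose probe set begins 5003 bases past the end of that of Aldh3a1. Aldh3a2 was at 6.14, 6.59 and 5.92 on the knockout arrays, against 7.72 and 7.57 in wild type. The groups were apart, yet the difference of -1.42 ± 0.24 (SE) did not pass (limma adjusted p = 0.158). On the other side Usp22, a ubiquitin protease gene, differed by -0.12 ± 0.07 (SE; limma adjusted p = 0.554). Of all 31 neighbours 0 passed limma's adjusted p. An unadjusted p under 0.05 was reached by 0 higher and 2 lower, beside 5.39% and 8.28% of all genes.

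**Figure D4:**
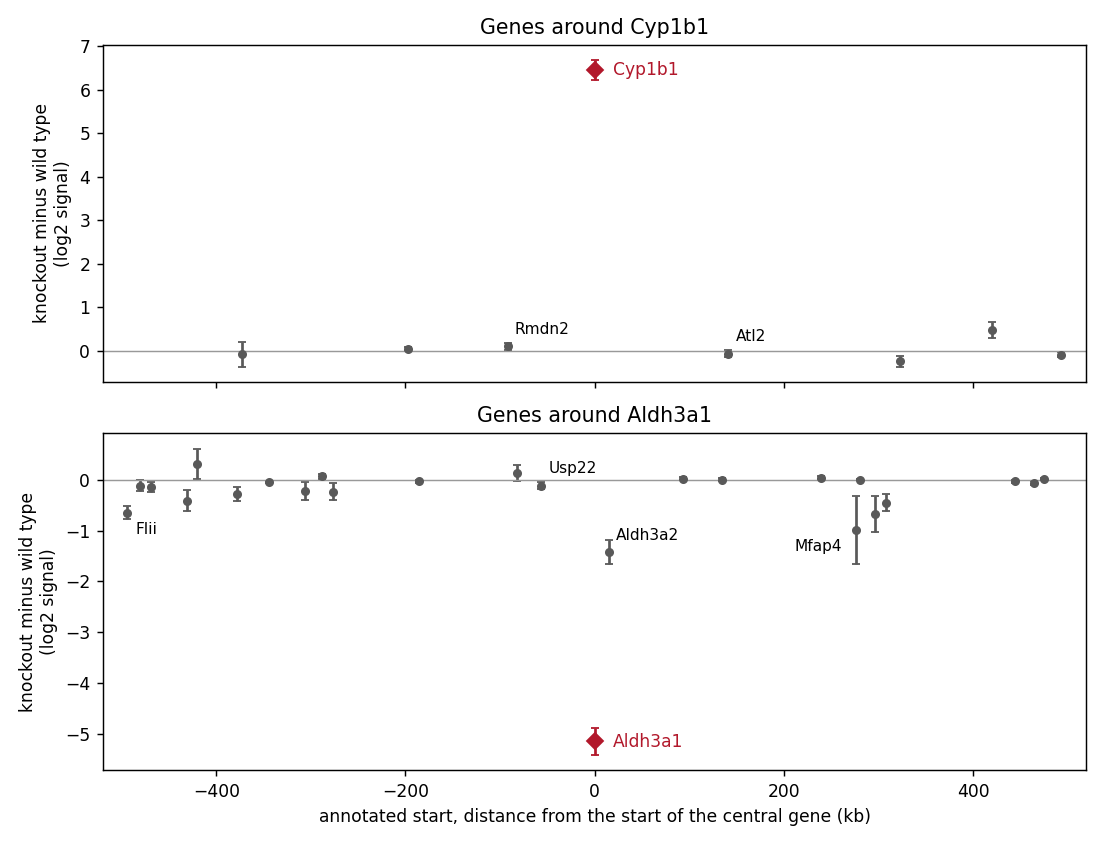
Difference between knockout and wild-type means (y axis, log2) of genes within 500 kb of Cyp1b1 (upper panel) and Aldh3a1 (lower panel), by the distance of their annotated start in kb. Bars are moderated standard errors and red diamonds are the central genes. Grey points stay between -0.24 and 0.48 around Cyp1b1 and between -1.42 and 0.32 around Aldh3a1.

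Genes with the most similar profile were found by the root mean square distance between array values centred on each gene's mean, over the 5 arrays. Candidates were 10313 genes brighter than the median, with predicted, clone, olfactory, vomeronasal and small RNA symbols left out. Nearest to Cyp1b1 were Mme, which encodes the peptidase neprilysin (distance 0.36), Sfrp2, a secreted Wnt modulator (0.56), Slco2a1, a prostaglandin transporter gene (0.61), Ccn3, a matricellular protein gene (0.72), and Mab21l2 (0.72). The median distance of the candidates was 3.19. Slco2a1 shared with Cyp1b1 its order within knockout, with 9.30, 8.47 and 9.59 on replicates 1, 2 and 3, against 3.44 and 4.20 in wild type. Mme, Sfrp2, Ccn3 and Mab21l2 did not share this order. Among those nearest to Aldh3a1 were the developmental transcription factor gene Tfap2b (0.21), Ccdc68 (0.32), the G protein subunit gene Gnai1 (0.41) and the imprinted gene Peg3 (0.52), where the median over the candidates was 2.52. Tfap2b was at 3.01, 3.19 and 2.81 on the knockout arrays, against 8.25 and 8.36 in wild type. Both sets of neighbours rest on 5 arrays and on the contrast that chose the pair, so they are a description.

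**Figure D5:**
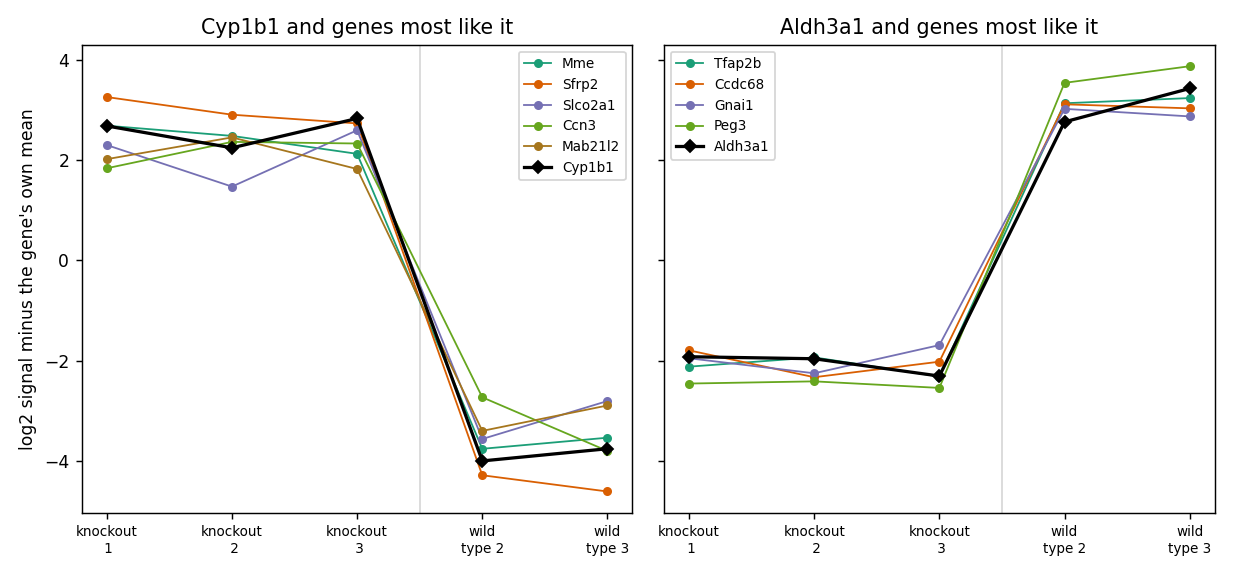
Log2 signal minus each gene's own mean (y axis) on the 3 knockout and 2 wild-type arrays, for Cyp1b1 (left, black) and Aldh3a1 (right, black) with genes nearest to each. All lines step once, between the knockout and the wild-type arrays, down on the left and up on the right.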

How the data were processed

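Gene expression was measured on 5 Affymetrix arrays. The log2 values deposited by the authors, 1 per probe set and array, were used as deposited. Per the submitters' processing notes they come from Affymetrix Expression Console, for which no version or summary method is given here. Of 35556 probe sets, 28350 were of category main, and 25006 of those carried 1 gene symbol, updated through RefSeq (GRCm38.p6, names only): 22271 by transcript accession and 1940 by symbol, while 795 kept the file's symbol. The brightest probe set stood for each of 21654 genes. Coordinates are taken as NCBIM37, since 2759 of the 2955 descriptions that cite an NCBIM37 interval overlap the coordinates in their row. The number of arrays limits the precision.

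Knockout was compared with wild type by linear models (lmFit and eBayes of limma 3.58.1, R 4.3.3, no block, 3 residual degrees of freedom), with Benjamini-Hochberg adjustment over all genes and a threshold of 0.05. Standard errors are moderated. The fit was also run on simulated arrays with independent noise for each gene. These hold no shared effect of array or culture, so they do not test the error between cultures. Of the tested genes 1589 had equal values on all arrays. The fitted prior had 0.626 degrees of freedom, so the moderation was slight. With these genes left out 359 were called, against 65 with them. The 8 genes and the lists were chosen with earlier results of these data known. List genes were named where they passed, and otherwise up to 4 per list were named by size of difference among those with a higher-group mean above the median of all genes. For neighbours up to 4 per centre were eligible, nearest first. Some genes that this rule names are not reported here. The list genes Ugt1a6a and Ugt1a6b had no matching probe set. Alternatives were other normalizations, filters, probe set summaries, a block for replicate number, array weights, prior variances, a threshold of 0.01 and leaving out each array.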

Additional observations from a re-analysis of the deposited data

How the results depend on the processing

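The differences of Ahr, Arnt, Ahrr, Tiparp, Aldh3a1, Nqo1 and Cyp1b1 kept their sign in all 10 alternatives that change them, and Cyp1a1, at background, changed sign in 3 of 10, between -0.08 and 0.05. Leaving out 1 array gave 6.33 to 6.63 for Cyp1b1, -5.48 to -4.82 for Aldh3a1, 0.91 to 1.33 for Ahr and -1.48 to -1.05 for Nqo1. Of the 8 genes 1, Cyp1b1, was called with a robust prior variance, and 0 with a replicate block or at an adjusted p under 0.01, and 0 to 2 when 1 array was left out. Over all genes the count of 65 (2962 at an unadjusted p under 0.05) was 368 after a further quantile normalization, 250 with array medians subtracted, 266 without dim genes, 359 without genes lacking spread and 107 with array weights. It was 0 at an adjusted p under 0.01, and 0 to 332 when 1 array was left out (0 without knockout replicate 1 or 3, 2299 and 2199 at an unadjusted p under 0.05). Where 1 wild-type array is left out, the other is assumed to vary as the knockout arrays do. With the replicate block it was 0 (2323 at an unadjusted p under 0.05). Replicate 1 occurs only in knockout, so the block takes that array out of the difference. Both settings gave 6.41 for Cyp1b1, so for the size of a difference they are not separate alternatives. The block also leaves fewer residual degrees of freedom than the 3 of the main fit, so nothing is read from its 0 calls. The numbers pair nothing by label, and deviations of same-numbered arrays had correlations across genes of -0.17 and -0.14. The 2 wild-type arrays deviate from their mean by opposite amounts. The same knockout arrays therefore gave 0.17 and 0.14 with the other wild-type array, and these values cannot decide whether the numbers mark pairs. Among P450 genes 2 were called after quantile normalization, 2 with medians subtracted, 2 without dim genes, 4 without genes lacking spread, and 0 to 1 when 1 array was left out. Those 4 were Cyp26b1, Cyp7b1, Por and Cyp20a1. Among NRF2-responsive genes 1, Ephx1, was called in each of those 4 settings, and 0 to 1 when 1 array was left out (Gstp1, without wild-type replicate 3). The other lists kept 0 calls in every setting. The longer dioxin core was found in 1 of 6 promoters, against 5 with the shorter. Apart from the settings that use fewer arrays or genes, the cause of these changes was not tested.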
